A study of Canis lupus familiaris with 34 samples.

Results

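Collagens are the triple-helical proteins that give the mitral valve its strength, and the collagen genes of the dog were followed here across 34 mitral valves. A gene was taken as a member when its symbol had the form COL, a number, A and a number, which held for 44 of the 22035 gene symbols in the deposited table. Of these, 11 encode fibrillar chains, 8 basement membrane chains, 10 fibril-associated collagens with interrupted triple helices (FACIT) and 15 other collagens. All 44 had a sum of at least 100 counts over the dogs, the filter used by the study, so each was tested.

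A collagen molecule is made of 3 chains wound around each other. Chains of collagen I, III and V form the banded fibrils of the fibrosa, the load-bearing layer of the valve, while FACIT collagens sit on the fibril surface and collagen IV forms the sheet-like network under the endothelium. In myxomatous mitral valve disease (MMVD) the leaflets thicken and elongate, and their collagen bundles become disorganised. Most valve collagen is made by valve interstitial cells, the resident fibroblasts.

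The valves came from privately owned Cavalier King Charles Spaniels of both sexes, collected at elective euthanasia. Their age was about 10 years on average, with a spread of several years in both groups. The group 10y-MMVD-CHF held 15 dogs (6 females, 9 males) in which MMVD had led to congestive heart failure (CHF), stage C of the ACVIM scheme, in which heart failure is present. The group 10y-noCHF held 19 dogs (10 females, 9 males) without CHF, which the study's methods place at ACVIM stages A, B1 and B2, with 1 dog at stage A. The comparison is therefore largely between stages of 1 disease in 1 breed, and a group of healthy valves was not analysed here. Poly-A RNA was sequenced in 1 library per dog, and the deposited values are raw counts of reads, 46185256 to 82361245 per dog. CPM are counts scaled to library size with TMM factors in edgeR. Since these are bulk samples, fewer cells of a type and less RNA per cell cannot be told apart.

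A pair of 10y-MMVD-CHF libraries lay at the end of the range in some measures. CAV1047 had the fewest counts of all dogs and the highest mean log2 CPM of 19 cardiomyocyte markers, 10.6 against a median of 6.63 over the dogs. Among 10y-noCHF dogs the fewest counts were 48784642, and the highest marker mean among the males was 9.72. CAV614 had the highest mean of the red blood cell markers, 6.35. The fits without both dogs were not planned. Heart muscle varied widely between all samples, with a cardiomyocyte marker mean from -0.45 to 10.6. Markers of valve interstitial cells or fibroblasts were high in every dog, with a summed level of 12021 to 26900.0 CPM.

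Collagen genes took 1.65% ± 0.436 (SD, n = 34) of all counts. In 10y-MMVD-CHF the share ranged from 0.906% in CAV373 to 2.65% in CAV1519 with a median of 1.55%, and in 10y-noCHF from 0.949% in CAV748 to 2.296% in CAV1041 with a median of 1.79%, so the groups overlapped over nearly their whole range. Fibrillar chains made up 69.2% ± 3.58 (SD, n = 34) of the collagen counts, basement membrane chains 5.87% ± 1.36 (SD, n = 34), FACIT collagens 7.71% ± 1.07 (SD, n = 34) and the other collagens 17.3% ± 2.49 (SD, n = 34). COL1A1, COL1A2 and COL3A1 alone held 54.2% ± 3.96 (SD, n = 34). A share of counts also depends on gene length, and for 35 of the 44 genes the deposited feature is the whole span of an aligned human gene with its introns.

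The levels of single collagens spanned more than 4 orders of magnitude. Of the 44 genes, 4 had a mean above 1000 CPM, 12 lay between 100 and 1000, 15 between 10 and 100, 10 between 1 and 10 and 3 below 1. Levels per length could be compared among 9 genes only, those counted on canine RefSeq exons. Per kb of exon, COL1A2 had 738 ± 231 CPM (SD, n = 34) and COL1A1 658 ± 252, the α2 and α1 chains of collagen I. COL6A3, a chain of the beaded filaments around cells, followed with 60.4 ± 19.5 CPM per kb and COL9A2, a FACIT chain best known from cartilage, with 37.1 ± 15.2. The remaining exon-counted genes, COL2A1, COL4A5, COL9A3, COL7A1 and COL4A4, had 0.407 to 3.504 CPM per kb on average.

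Collagen I is assembled from 2 α1 chains and 1 α2 chain. The ratio of COL1A1 to COL1A2 per exon length was 0.877 ± 0.105 (SD, n = 34) and ranged from 0.721 in CAV1731 to 1.12 in CAV1519. Counts per exon length were thus lower for the α1 chain than for the α2 chain on average, although the protein takes more α1 chains. They depend on the annotated exon lengths and were not converted to numbers of transcripts. The ratio had a median of 0.902 with CHF against 0.832 without, a difference that was not tested.

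**Figure D1:**
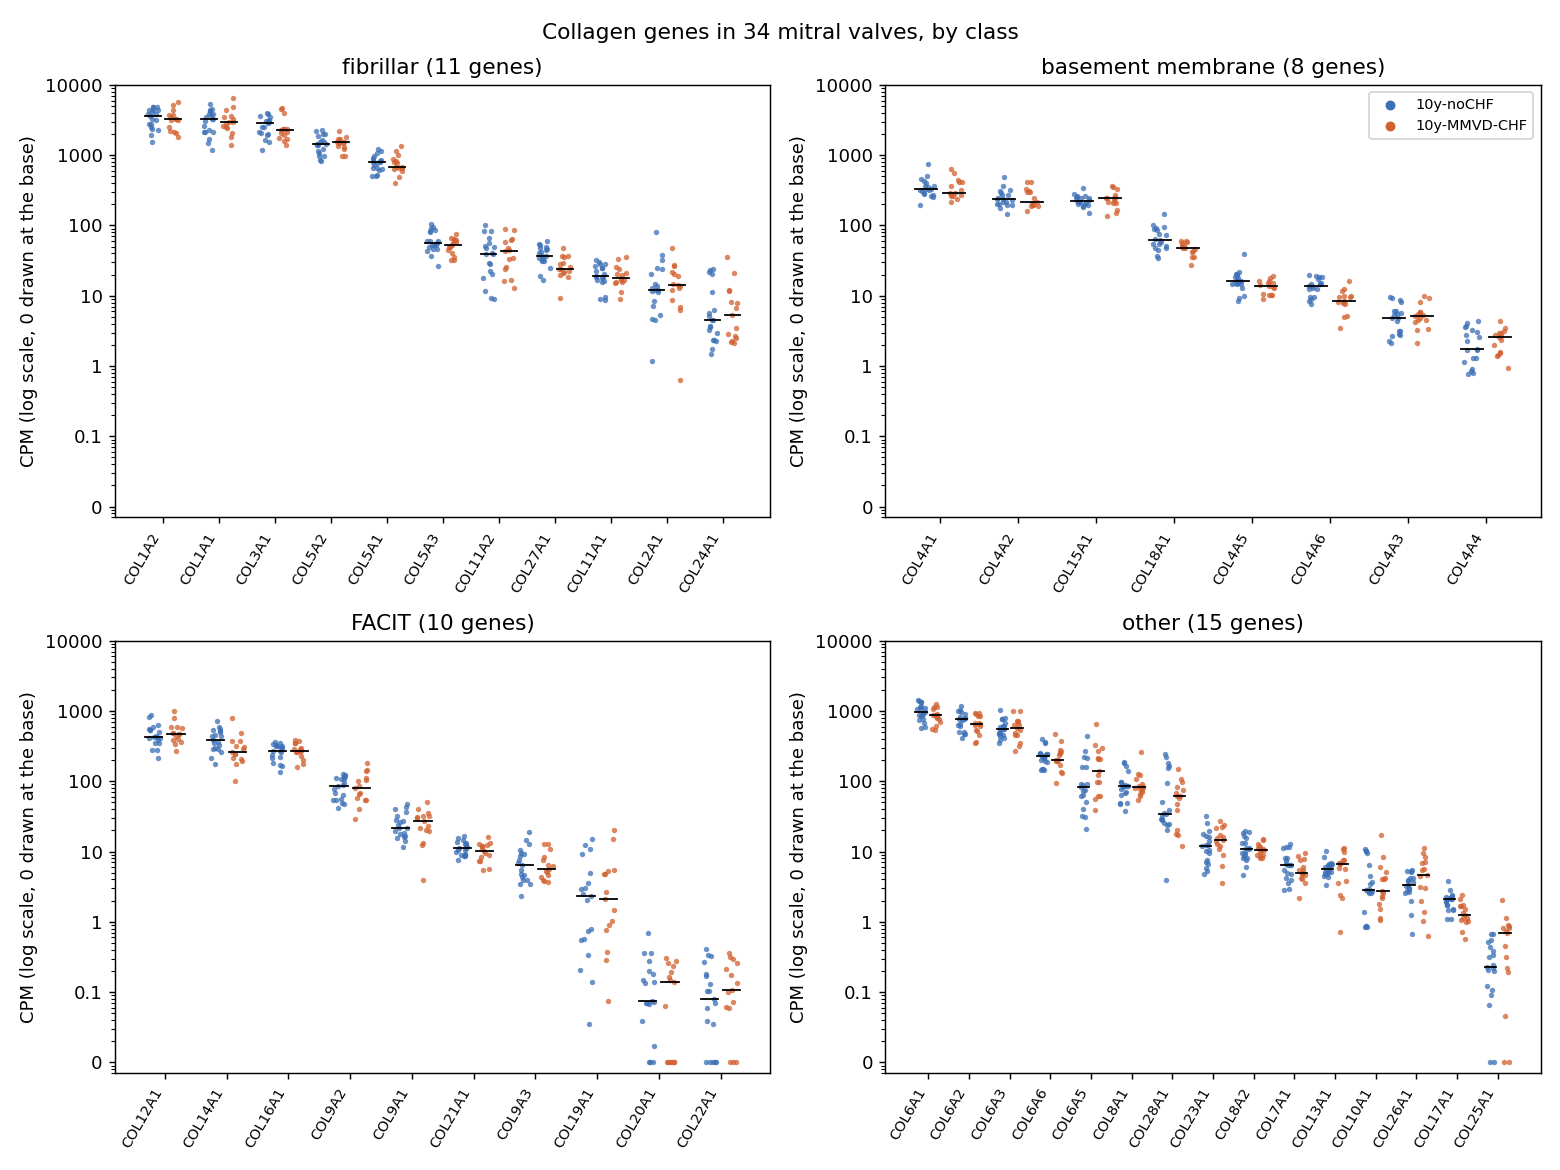
Levels of the 44 collagen genes in each of 34 dogs, in CPM on a log axis with values of 0 drawn at the base; each point is a dog, coloured by group, and black bars are group medians. COL1A2, COL1A1, COL3A1 and COL5A2 have means above 1000 CPM, COL20A1, COL22A1 and COL25A1 means below 1 CPM with some dogs at 0, and the 2 groups overlap in every gene.

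The first question of the design is which collagen genes differ with CHF status. The collagen I and III chains that dominate the valve had overlapping levels in both groups. The lowest p-values belonged to chains of low to moderate level, most with lower means in 10y-MMVD-CHF. None of these passed the edgeR test. With edgeR's quasi-likelihood test and sex as a fixed effect, 0 of the 44 collagen genes had a false discovery rate (FDR, the Benjamini-Hochberg adjusted p) below 0.1, a threshold that 0.118% of the 19568 features passed. DESeq2, the tool of the study, called 2 collagen genes when run here, COL4A6 and COL18A1, beside 0.327% of all features. The study's own DESeq2 list holds COL17A1 as well. The limma voom fit called 0. At an unadjusted p below 0.05 with edgeR there were 6 collagen genes, which is 13.6% of the family, against 6.31% of all features. Of these, 5 were lower in 10y-MMVD-CHF and 1 was higher, where 3.51% of all features were lower and 2.8% higher by the same criterion.

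Over the family, 22 genes had a positive and 22 a negative log2 difference (10y-MMVD-CHF over 10y-noCHF), and its median was 0.00694 beside 0.0076 over all features. By class the median was -0.04 for the 11 fibrillar genes, 0.00711 for the 8 basement membrane genes, 0.05 for the 10 FACIT genes and 0.03 for the 15 others. The 22 to 22 split was the same with RLE and with upper-quartile scaling. In the fit without CAV614 and CAV1047, which was not planned, edgeR called 1 collagen gene, COL4A6, and 4 had an unadjusted p below 0.05.

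**Figure D2:**
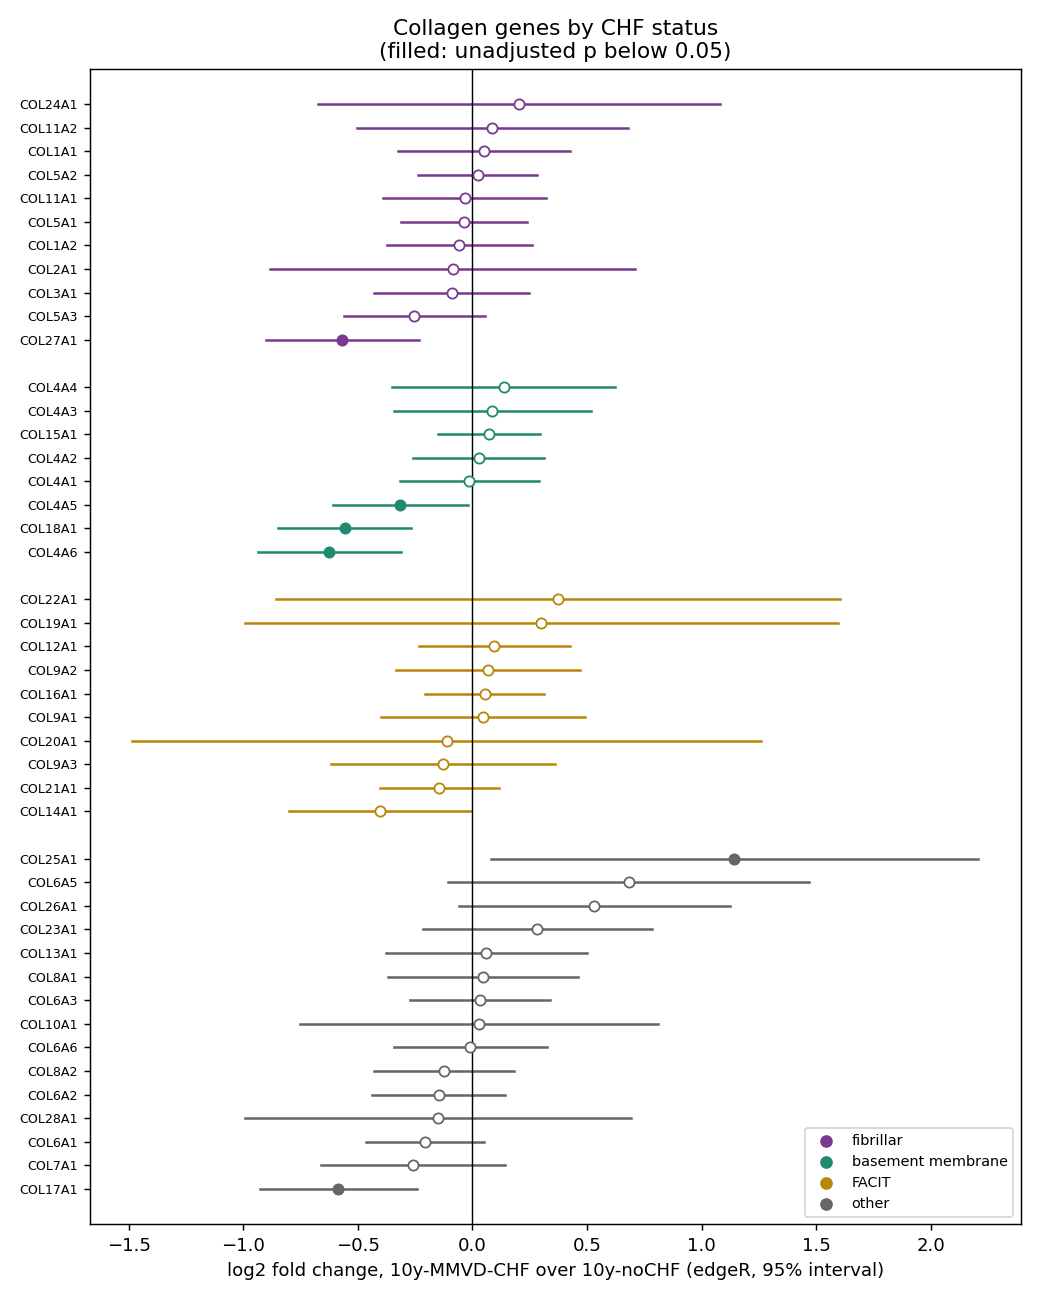
Log2 fold change of each collagen gene, 10y-MMVD-CHF over 10y-noCHF, with an approximate 95% interval from edgeR, grouped and coloured by class. Filled points have an unadjusted p below 0.05. The interval is a normal approximation, and that of COL14A1, with p above 0.05, does not reach 0. COL27A1, COL4A5, COL18A1, COL4A6 and COL17A1 are filled on the lower side and COL25A1 on the higher side, and none has an edgeR FDR below 0.1.

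The fibrils of the valve rest on collagens I, III and V. COL1A1 ranged from 1389 to 6516 CPM in 10y-MMVD-CHF with a median of 3003, and from 1175 to 5279.5 CPM in 10y-noCHF with a median of 3231. COL1A2 ranged from 1834 to 5647 CPM in 10y-MMVD-CHF with a median of 3241, and from 1532 to 4909 CPM in 10y-noCHF with a median of 3584. In both genes the groups overlapped over most of their range, with CAV1519 the highest 10y-MMVD-CHF dog. The log2 fold change of COL1A1 was 0.05 with a 95% interval from -0.33 to 0.43 (edgeR FDR = 0.986), and that of COL1A2 was -0.06, from -0.37 to 0.26 (edgeR FDR = 0.979).

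COL3A1 encodes the only chain of collagen III, which co-assembles with collagen I in extensible tissues. COL3A1 ranged from 1384 to 4756 CPM in 10y-MMVD-CHF with a median of 2252, and from 1203 to 4042 CPM in 10y-noCHF with a median of 2919. A total of 12 of the 15 10y-MMVD-CHF dogs were under the median of 10y-noCHF, although CAV1876 was the highest dog of all. It showed a log2 difference of -0.09 with standard error 0.17 and an edgeR FDR of 0.966. The ratio of COL3A1 to COL1A1 counts had a median of 0.786 in 10y-MMVD-CHF, from 0.585 to 1.07, and of 0.922 in 10y-noCHF, from 0.739 to 1.04, and was not tested. COL5A1 and COL5A2, the chains of collagen V that start fibrils and limit their width, had log2 fold changes of -0.04 and 0.02, and COL5A3, a rarer chain, of -0.25 (edgeR FDR = 0.848).

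Among the minor fibrillar chains, COL27A1 differed most. It encodes a fibrillar collagen known from cartilage and developing tissues and lies on chromosome 11 from 68823997 to 68957838 on the plus strand in canFam4. COL27A1 ranged from 9.18 to 48.4 CPM in 10y-MMVD-CHF with a median of 24.3, and from 17.01 to 59.8 CPM in 10y-noCHF with a median of 37.3. Of the 15 10y-MMVD-CHF dogs 14 were under the median of 10y-noCHF, and the exception was CAV614. COL27A1 had a mean of 26.8 ± 9.603 CPM with CHF (SD, n = 15) against 38.6 ± 11.7 CPM without (SD, n = 19), a log2 difference of -0.57 with standard error 0.17 and an edgeR FDR of 0.398. DESeq2 gave an FDR of 0.1495, so it passed with neither tool.

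COL2A1, the chain of collagen II, had the widest range of the fibrillar genes. COL2A1 ranged from 0.636 to 47.1 CPM in 10y-MMVD-CHF with a median of 14.02, and from 1.18 to 81.8 CPM in 10y-noCHF with a median of 12.01. The lowest dog of all was CAV1876 and the highest CAV1049, 129 times apart. The log2 fold changes were -0.09 for COL2A1, -0.03 for COL11A1, 0.09 for COL11A2 and 0.04 for COL9A1, each with an edgeR FDR above 0.9. COL10A1, the hypertrophic cartilage collagen, had a log2 fold change of 0.03, but its feature overlaps NT5DC1 on the opposite strand, and the counting used no strand. The mean log2 CPM of 8 chondrocyte markers was 3.31 ± 0.274 with CHF (SD, n = 15) against 3.599 ± 0.327 without (SD, n = 19) (two-sided permutation test within sex, p = 0.0146, 0.131 after adjustment over 9 marker lists). On log2(CPM + 1) the difference was -0.13 instead of -0.28, with a permutation p of 0.1103 (0.565 after adjustment). The largest difference among the 8 was that of MATN1, -1.86, at means of only 0.0328 CPM with CHF and 0.112 CPM without. SOX9 and EPYC were higher with CHF, by 0.14 and 0.15, and the others ran from -0.35 to -0.07. The part of chondrocyte content in the collagen values was not tested.

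The basement membrane class held the smallest p-values of the family. COL4A6 encodes the α6 chain of collagen IV, which pairs with 2 α5 chains in a network found in a restricted set of basement membranes, and lies on chromosome X from 82301810 to 82588892 on the minus strand. COL4A6 ranged from 3.46 to 16.1 CPM in 10y-MMVD-CHF with a median of 8.55, and from 7.53 to 19.9 CPM in 10y-noCHF with a median of 13.9. Of the 15 10y-MMVD-CHF dogs 14 were under the median of 10y-noCHF and 3 lay below every 10y-noCHF dog, with CAV614 lowest and CAV1047 as the exception. COL4A6 had a mean of 8.89 ± 3.16 CPM with CHF (SD, n = 15) against 13.8 ± 3.75 CPM without (SD, n = 19), a log2 difference of -0.62 with standard error 0.16 and an edgeR FDR of 0.235. DESeq2 gave an FDR of 0.05003. Without CAV1047 the edgeR FDR was 0.0651, and without both CAV1047 and CAV614 it was 0.0784, so a single library decided on which side of the threshold it fell.

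COL18A1 encodes a multiplexin of vascular and epithelial basement membranes whose C-terminal fragment is endostatin, and lies on chromosome 31 from 38861365 to 38935749 on the plus strand. COL18A1 ranged from 27.7 to 60.7 CPM in 10y-MMVD-CHF with a median of 48.3, and from 34.1 to 144 CPM in 10y-noCHF with a median of 61.6. All 15 10y-MMVD-CHF dogs were under the median of 10y-noCHF, while the lower part of the 10y-noCHF range overlapped with them. COL18A1 had a mean of 47.5 ± 9.52 CPM with CHF (SD, n = 15) against 69.03 ± 27.3 CPM without (SD, n = 19), a log2 difference of -0.56 with standard error 0.15 and an edgeR FDR of 0.303, and a DESeq2 FDR of 0.0624. The spread was wider in 10y-noCHF, where CAV901 was highest. The edgeR FDR was 0.0862 without CAV743, the lowest 10y-noCHF dog, and the log2 fold change was -0.47 without CAV901.

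COL15A1, the closest relative of COL18A1 and the other multiplexin, had a mean of 241 ± 67.3 CPM with CHF (SD, n = 15) against 230.2 ± 42.6 CPM without (SD, n = 19), a log2 difference of 0.07 with standard error 0.11 and an edgeR FDR of 0.961. The ratio of COL18A1 to COL15A1 counts had a median of 0.211 in 10y-MMVD-CHF, from 0.0789 to 0.359, and of 0.272 in 10y-noCHF, from 0.167 to 0.546. This ratio was not tested. Across the 34 dogs COL15A1 and COL18A1 showed no detectable relation (Pearson's r = 0.02, adjusted permutation p = 0.891; Spearman's rho = -0.03, adjusted permutation p = 0.861).

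The 6 chains of collagen IV form 3 kinds of molecule, and their genes lie in head-to-head pairs. COL4A1 and COL4A2, the chains of the molecule common to nearly all basement membranes, had log2 fold changes of -0.01 (standard error 0.15) and 0.03 (standard error 0.15). COL4A1 ranged from 215 to 644 CPM in 10y-MMVD-CHF with a median of 292, and from 198 to 756 CPM in 10y-noCHF with a median of 326. The groups overlapped over most of their range, and CAV648 and CAV865 were the highest dogs of either group in both genes. COL4A3 and COL4A4, which with the α5 chain form the network of the kidney glomerulus, were at low levels with log2 fold changes of 0.09 and 0.14.

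COL4A5, the X-linked neighbour of COL4A6, had a mean of 13.7 ± 3.09 CPM with CHF (SD, n = 15) against 17.02 ± 6.51 CPM without (SD, n = 19). The log2 difference was -0.31 (standard error 0.15, edgeR p = 0.04301, FDR = 0.778), and 11 of the 15 10y-MMVD-CHF dogs were under the median of 10y-noCHF. Without CAV1939, the highest 10y-noCHF dog, it was -0.20 with a p of 0.112. The ratio of COL4A6 to COL4A5 counts had a median of 0.7103 with CHF against 0.865 without, and was not tested. A total of 2 of the 6 collagen IV genes had p below 0.05, beside 6.31% of all features. Both were lower in 10y-MMVD-CHF, as were 3.51% of all features by that criterion. Both lie on the X chromosome, but their log2 fold changes differed by sex. For COL4A5 it was 0.13 in females and -0.70 in males, and for COL4A6 -0.41 and -0.81.

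Of the FACIT collagens, COL12A1, COL14A1 and COL16A1 had the highest counts. COL12A1 and COL16A1 had log2 fold changes of 0.10 and 0.05. COL14A1, which binds fibrils through decorin and is known to limit fibril width, had the smallest p of the FACIT genes. COL14A1 ranged from 99.7 to 787 CPM in 10y-MMVD-CHF with a median of 264, and from 176 to 718 CPM in 10y-noCHF with a median of 380.2. Here 13 of the 15 10y-MMVD-CHF dogs were under the median of 10y-noCHF, while CAV1876 was the highest dog of all. It showed a log2 difference of -0.40 with standard error 0.20 and an edgeR FDR of 0.786. COL21A1, COL9A2 and COL9A3 had log2 fold changes from -0.14 to 0.07, and COL19A1, COL20A1 and COL22A1 had standard errors above 0.6 at means below 5 CPM, so only large differences could be detected in these.

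Among the other collagens, COL6A1, COL6A2 and COL6A3 form the common beaded filaments that link cells to the interstitial matrix, and had the highest counts of the class. COL6A1 had a mean of 858 ± 218 CPM with CHF (SD, n = 15) against 987 ± 261 CPM without (SD, n = 19), a log2 difference of -0.21 with standard error 0.13 and an edgeR FDR of 0.848. COL6A2 and COL6A3 had log2 fold changes of -0.15 and 0.03. COL6A5 and COL6A6 are chains that can take the place of α3. COL6A5 varied widely, from 20.8 CPM in CAV748 to 646 CPM in CAV2156, with a log2 difference of 0.68 with standard error 0.40 and an edgeR FDR of 0.838, and COL6A6 had a log2 fold change of -0.01.

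COL17A1 is a transmembrane collagen of hemidesmosomes, the anchors of epithelial cells to their basement membrane, and was expressed at a low level. COL17A1 ranged from 0.574 to 2.41 CPM in 10y-MMVD-CHF with a median of 1.26, and from 1.08 to 3.81 CPM in 10y-noCHF with a median of 2.095. The lowest 5 of the 15 10y-MMVD-CHF dogs lay below every 10y-noCHF dog, and the highest of the group was CAV1047. The log2 difference of COL17A1 was -0.59 with standard error 0.17, and its FDR of 0.395 by edgeR and 0.162 by DESeq2 did not pass. Without CAV1047 and CAV614 the log2 difference was -0.71 (edgeR FDR = 0.129). The study lists COL17A1 among its differentially expressed genes, lower with CHF and by a larger difference than found here. Of 6 epithelial markers, KRT5 and KRT14 had fewer than 100 counts and were not tested. The summed level of the other 4 was 3.47 to 37.8 CPM in 10y-MMVD-CHF and 2.57 to 68.8 CPM in 10y-noCHF.

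COL25A1, a transmembrane collagen known from neurons and muscle, was the only one of the 6 genes with p below 0.05 that was higher in 10y-MMVD-CHF. COL25A1 ranged from 0 to 2.01 CPM in 10y-MMVD-CHF with a median of 0.692, and from 0 to 0.676 CPM in 10y-noCHF with a median of 0.226. Of the 15 10y-MMVD-CHF dogs 8 lay above every 10y-noCHF dog, while the lowest dogs of both groups had 0 counts. COL25A1 had a log2 difference of 1.14 with standard error 0.54 and an edgeR FDR of 0.778 and at most 147 counts in any dog. Without CAV1872, the highest dog, the log2 fold change was 0.75 with a p of 0.1701.

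The remaining genes of the class did not reach a p of 0.05. COL26A1 showed a log2 difference of 0.53 at an edgeR FDR of 0.832, with 7 of 15 10y-MMVD-CHF dogs above every 10y-noCHF dog and CAV1876 below them all. COL7A1, the anchoring fibril collagen, had -0.26, COL23A1 0.28 and COL28A1 -0.15. COL8A1 and COL8A2, the short-chain network collagens of vessels and cornea, had 0.05 and -0.12, and COL13A1 0.06.

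**Figure D3:**
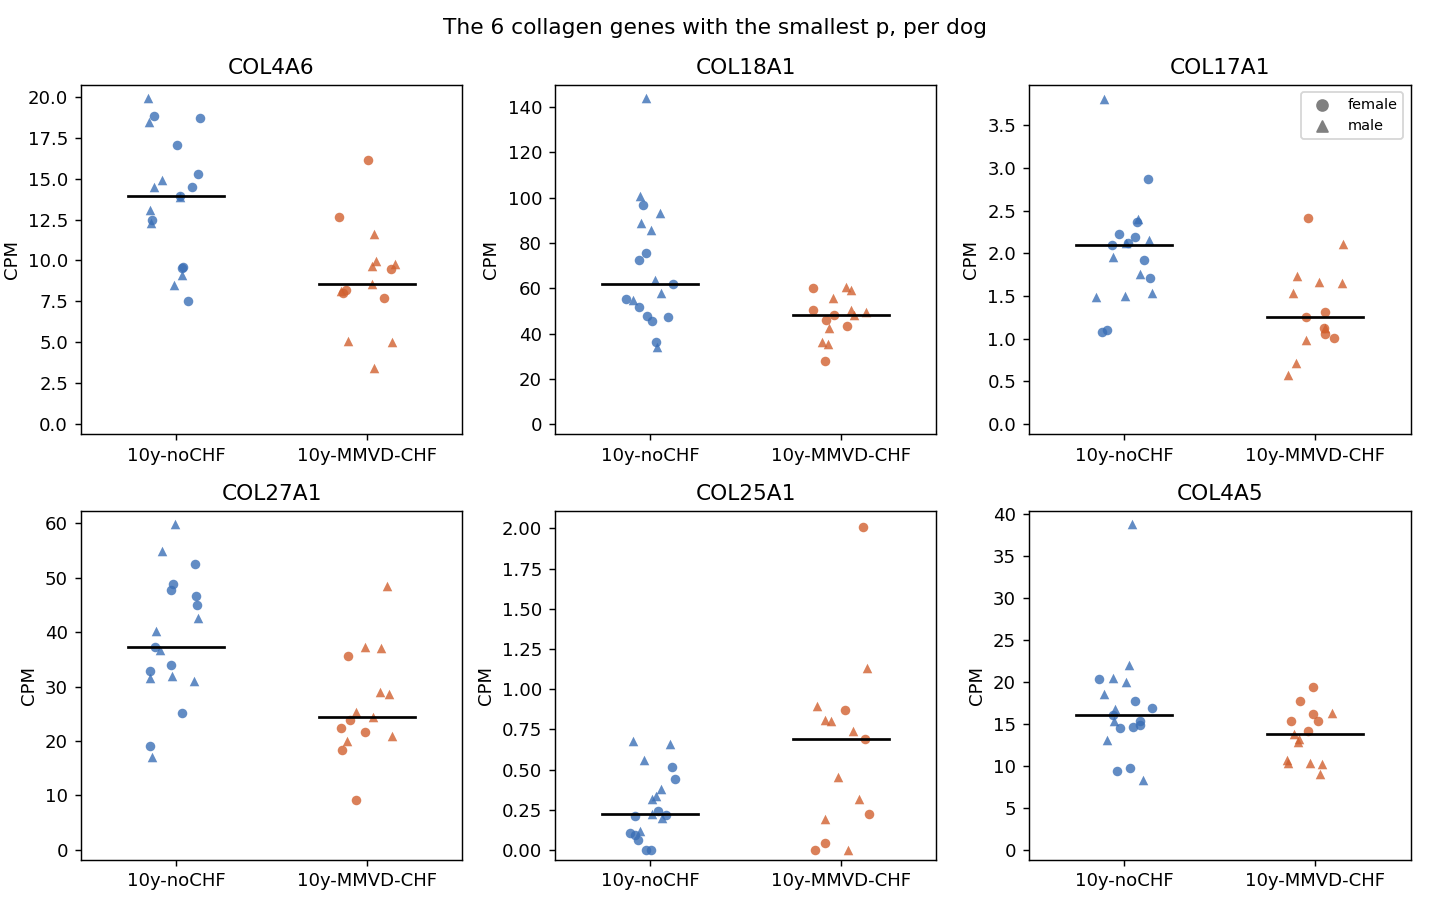
Levels in CPM of the 6 collagen genes with the smallest p, each point a dog (circles female, triangles male) and bars the group medians. COL4A6, COL18A1, COL17A1 and COL27A1 have lower medians in 10y-MMVD-CHF with overlapping ranges, COL25A1 a higher one, and the highest 10y-noCHF dog of COL4A5 is far above the others.

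Among COL4A6, COL18A1, COL17A1 and COL27A1, a set chosen after its values were seen, Pearson's r across the 34 dogs, computed on residuals from the 4 means by CHF group and sex, ran from -0.17 for COL4A6 and COL27A1 to 0.39 for COL4A6 and COL18A1. These values are given as a description.

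The X-linked position of COL4A5 and COL4A6 raises the question of sex. No collagen gene passed the test between females and males, with 0 of 44 at an FDR below 0.1 by edgeR (all features: 0.143%) and 0 at an unadjusted p below 0.05 (all features: 2.98%). DESeq2 and limma voom also called 0. The log2 ratio of females to males was -0.00344 for COL4A5 and 0.16 for COL4A6. COL18A1 had the smallest p of the family, 0.05698, with a log2 ratio of -0.29.

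The difference between the CHF groups went in different directions in the sexes for most of the abundant collagens, without a call after adjustment. Among females 29 of the 44 collagen genes had a higher level with CHF, the median log2 difference being 0.18, and among males 32 of 44 had a lower level, the median being -0.24. Over all features the medians were 0.009695 and 0.00442, and 52.04% and 51.3% were higher. For 23 collagen genes the fold change was above 0 in females and below 0 in males, and for 6 the reverse. In males, 10 of the 11 fibrillar genes were lower, with a median of -0.32, and in females 8 of 11 were higher, with a median of 0.23.

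The difference itself was tested with an interaction term. With edgeR, 0 of the 44 collagen genes had an interaction FDR below 0.1, as had 0% of all features, and DESeq2 called 0 collagen genes. At an unadjusted p below 0.05 there were 9 collagen genes, or 20.5%, against 6.02% of all features. All 9 had a more positive change in females, a direction shared with 3.16% of all features. They were COL4A5, COL6A3, COL3A1, COL8A1, COL4A2, COL12A1, COL1A2, COL1A1 and COL11A2. The median interaction over the family was 0.36 beside 0.00283 over all features. These genes vary together between dogs, so their number is not that of independent observations.

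COL4A5 had the smallest interaction p. In females, COL4A5 had a median of 15.8 CPM in 10y-MMVD-CHF, from 14.2 to 19.4, and of 15.2 CPM in 10y-noCHF, from 9.38 to 20.3. In males, COL4A5 had a median of 10.8 CPM, from 9.01 to 16.3, against 18.6 CPM, from 8.34 to 38.9. The sexes of 10y-MMVD-CHF thus overlapped little in COL4A5, and those of 10y-noCHF overlapped widely. The interaction was 0.83 (standard error 0.27, edgeR p = 0.00397, FDR = 0.815).

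COL3A1 and COL1A1 represent the main fibrils. In females, COL3A1 had a median of 2366 CPM in 10y-MMVD-CHF, from 1761 to 4756, and of 2296 CPM in 10y-noCHF, from 1203 to 3899.5. In males, COL3A1 had a median of 2163 CPM, from 1384 to 4034, against 3039 CPM, from 2000.5 to 4042. The medians of both female groups were close, and the medians of the male groups were apart. The interaction was 0.81 (standard error 0.32, edgeR p = 0.0165, FDR = 0.815) for COL3A1 and 0.80 (standard error 0.37, edgeR p = 0.037, FDR = 0.817) for COL1A1. COL6A3 had a log2 fold change of 0.46 in females and -0.33 in males, with an interaction of 0.79 (standard error 0.29, edgeR p = 0.00996, FDR = 0.815). COL27A1 and COL17A1, in contrast, were lower in 10y-MMVD-CHF in both sexes.

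The cardiomyocyte marker mean was 5.82 ± 3.23 with CHF (SD, n = 6) against 6.55 ± 2.86 without (SD, n = 10) among females, and 6.36 ± 2.82 (SD, n = 9) against 4.84 ± 3.85 (SD, n = 9) among males. These differences ran in opposite directions in females and males. They are smaller than the SDs between dogs, which do not measure the uncertainty of a mean. Their interaction with sex was not tested, and neither was their part in the collagen values. With this mean as a further term beside the interaction, 10 collagen genes had an interaction p below 0.05, of which 8 were more positive in females and 2 more negative, and the median interaction was 0.22 instead of 0.36. Without CAV614 and CAV1047 it was 0.37.

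**Figure D4:**
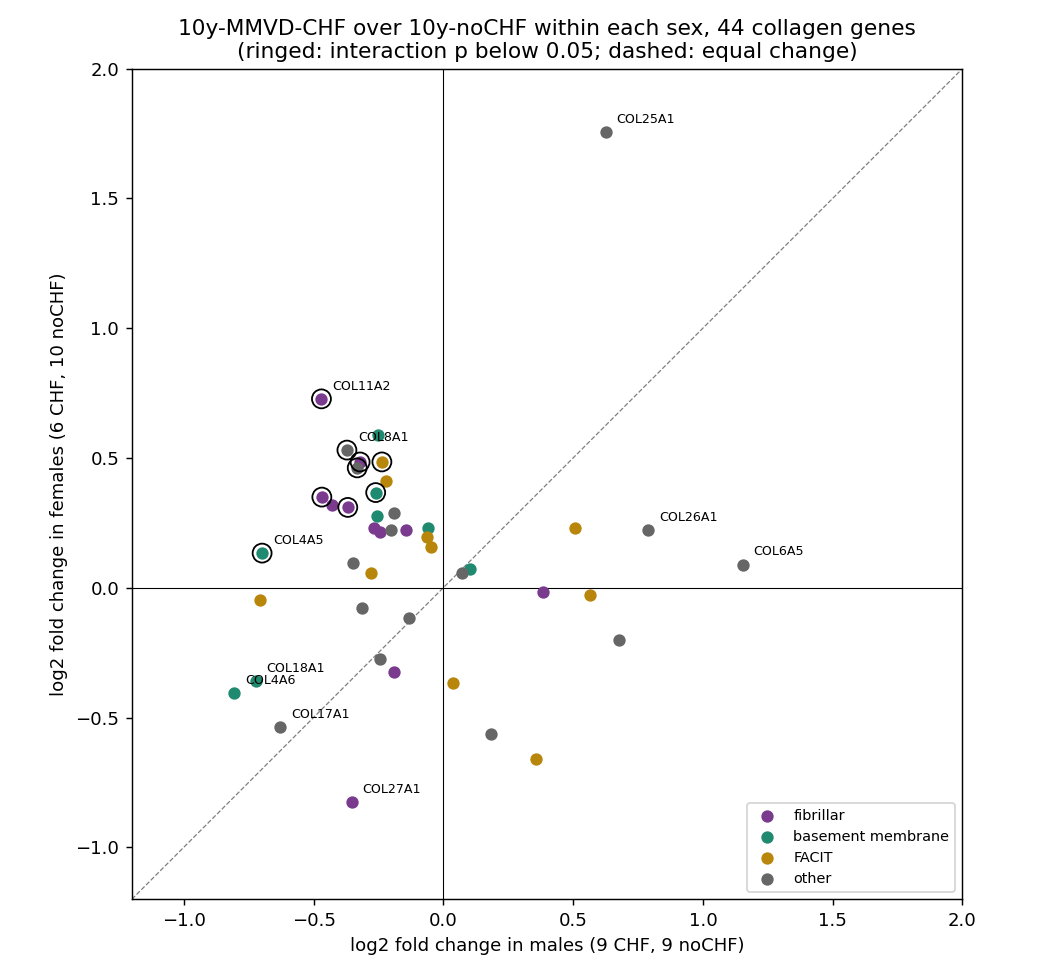
Log2 fold change by CHF status among females (6 against 10 dogs) plotted over that among males (9 against 9), for 44 collagen genes coloured by class; ringed genes have an interaction p below 0.05 and the dashed line marks equal change. A total of 23 genes lie in the upper left, higher in female and lower in male 10y-MMVD-CHF dogs, while COL4A6, COL18A1, COL17A1 and COL27A1 lie at the lower left.

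In samples with more heart muscle marker RNA, 7 of the 11 fibrillar genes were lower and 4 collagens of several classes were higher. In an edgeR fit with CHF status, sex and the cardiomyocyte marker mean, 20 of 44 collagen genes changed with that mean at an FDR below 0.1, which is 45.5% of the family beside 37.1% of all features. Of these, 16 were lower with more muscle (all features: 18.2%) and 4 were higher (all features: 18.9%). The 16 lower genes had slopes from -0.16 to -0.05 log2 units of the gene per log2 unit of the marker mean, with a median of -0.08. COL1A1 and COL1A2 had slopes of -0.09 (edgeR FDR = 0.0194) and -0.09 (edgeR FDR = 0.00336).

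The 4 collagens that were higher with more muscle were COL19A1, COL24A1, COL28A1 and COL5A3. COL19A1, a FACIT collagen known from muscle differentiation, had a slope of 0.61 (standard error 0.0559, edgeR FDR = 6.06e-11) and ranged from 0.0353 CPM in CAV444 to 19.99 CPM in CAV1047, the dog with the highest marker mean. The slope was 0.36 (edgeR FDR = 4.63e-09) for COL24A1, a fibrillar chain whose highest dog was also CAV1047, 0.29 (edgeR FDR = 2.49e-05) for COL28A1, a collagen associated with peripheral nerve, and 0.08 (edgeR FDR = 0.00317) for COL5A3. COL4A6, COL18A1 and COL17A1 did not pass, with slopes of -0.01, -0.03 and 0.04. COL27A1 did pass and was lower with more muscle, with a slope of -0.07 (edgeR FDR = 0.0365). With the marker mean in the fit, the log2 fold changes by CHF status were -0.62 for COL4A6, -0.54 for COL18A1, -0.60 for COL17A1 and -0.57 for COL27A1, close to those without it.

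No difference between the groups was detected in this mean (two-sided permutation test within sex, p = 0.656, 0.948 after adjustment). Endothelial markers were compared as well, since collagen IV and collagen XVIII lie beneath endothelium. The mean log2 CPM of 10 endothelial markers was 5.83 ± 0.231 with CHF (SD, n = 15) against 5.69 ± 0.278 without (SD, n = 19) (permutation p = 0.0882, 0.397 after adjustment), and VWF was the only marker of the 10 with an edgeR FDR below 0.1. The means of the valve interstitial, smooth muscle, macrophage, epithelial, Schwann and red blood cell markers differed by -0.14 to 0.19 on the log2 scale between the groups, with adjusted permutation p from 0.665 to 0.948. Of the collagens only COL11A1 changed with the endothelial mean at an FDR below 0.1, and was lower, beside 4.42% of all features, or 2.52% lower. With the endothelial mean, VWF included, in the fit the log2 fold change was -0.57 for COL4A6 and -0.59 for COL18A1.

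Chains that share a molecule or lie side by side in the genome varied together to differing degrees. Correlations were computed on log2 CPM across the 34 dogs as residuals from the 4 means by CHF group and sex, for 16 relations in all, with permutation p-values adjusted over them and a threshold of 0.05 on the adjusted p. COL1A1 and COL1A2, which lie on chromosomes 9 and 14, had Pearson's r = 0.97 and Spearman's rho = 0.95 (adjusted permutation p = 2.67e-05 and 4e-05). COL4A1 and COL4A2, head to head on chromosome 22 with 802 bases between their features, had Pearson's r = 0.97 and Spearman's rho = 0.93 (adjusted permutation p = 2.67e-05 and 4e-05). In both pairs the dogs lay close to a line in either group. An unadjusted p of 1e-05, which these pairs have, is the smallest that 100000 permutations can give.

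The other head-to-head pairs of collagen IV were looser. COL4A3 and COL4A4, 17668 bases apart on chromosome 25, had Pearson's r = 0.73 and Spearman's rho = 0.68 (adjusted permutation p = 2.67e-05 and 0.000133), with r of 0.86 in 10y-noCHF and 0.43 in 10y-MMVD-CHF, a difference that was not tested. COL4A5 and COL4A6, 1554 bases apart on the X chromosome, had Pearson's r = 0.41 and Spearman's rho = 0.42 (adjusted permutation p = 0.0194 and 0.0264), and r was 0.32 without CAV743 and CAV1939. COL4A6 was counted over its whole span and COL4A5 over exons. When the 2 most distant dogs were left out, r was 0.96 for the collagen I pair, 0.95 for COL4A1 and COL4A2 and 0.77 for COL4A3 and COL4A4.

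**Figure D5:**
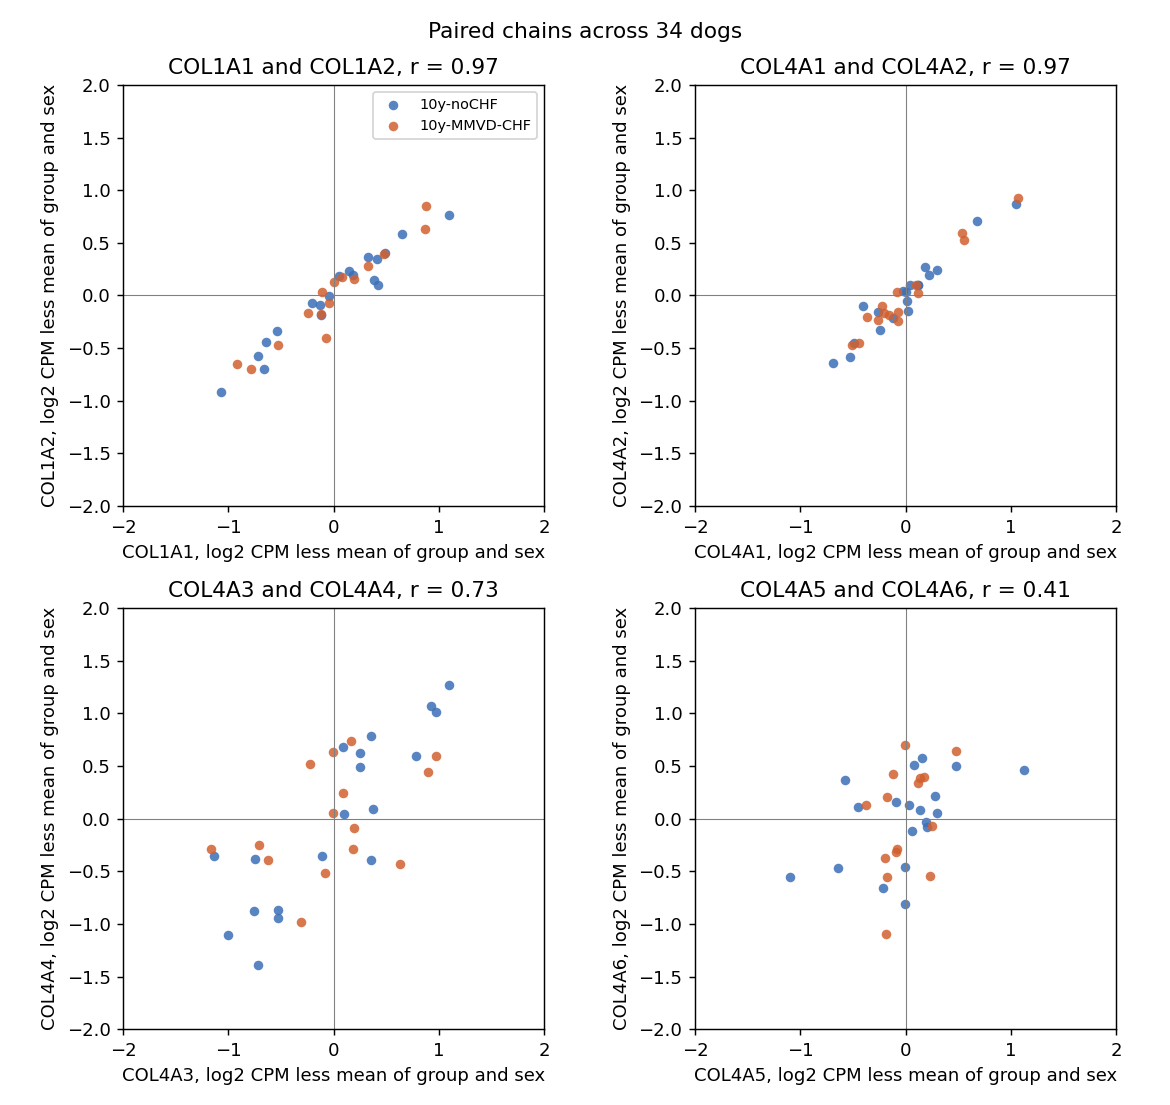
Log2 CPM of paired collagen chains in each of 34 dogs as residuals from the 4 means by CHF group and sex, with Pearson's r above each panel. COL1A1 and COL1A2 (r = 0.97) and COL4A1 and COL4A2 (r = 0.97) follow a line in both groups, COL4A3 and COL4A4 (r = 0.73) scatter more, and COL4A5 and COL4A6 (r = 0.41) form a loose cloud.

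COL1A1 and COL3A1 had Pearson's r = 0.92 and Spearman's rho = 0.93 (adjusted permutation p = 2.67e-05 and 4e-05), and COL5A1 and COL5A2 had Pearson's r = 0.78 and Spearman's rho = 0.77 (adjusted permutation p = 2.67e-05 and 6.4e-05). COL6A1 had Pearson's r = 0.83 and Spearman's rho = 0.83 with its neighbour COL6A2 (adjusted permutation p = 2.67e-05 and 4e-05). With COL6A3, the third chain of the same filament on another chromosome, COL6A1 had Pearson's r = 0.72 and Spearman's rho = 0.68 (adjusted permutation p = 4.57e-05 and 0.00016). COL8A1 and COL8A2 had Pearson's r = 0.35 and Spearman's rho = 0.39 (adjusted permutation p = 0.0914 and 0.0393), so the rank correlation was below 0.05 and Pearson's r was not. Without the 2 farthest dogs r was 0.90, 0.76, 0.83, 0.64 and 0.25 for these 5 pairs in the same order.

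Of the 6 genes set against the cardiomyocyte marker mean in the same family of relations, COL1A1 had Pearson's r = -0.51 and Spearman's rho = -0.58 (adjusted permutation p = 0.00486 and 0.0014) and COL15A1 had Pearson's r = -0.43 and Spearman's rho = -0.51 (adjusted permutation p = 0.0187 and 0.00348). For COL3A1 the rank correlation was below the threshold of 0.05 and Pearson's r was not, with Pearson's r = -0.34 and Spearman's rho = -0.42 (adjusted permutation p = 0.0784 and 0.02603). COL4A1, COL6A3 and COL18A1 gave r from -0.22 to 0.10, with adjusted permutation p from 0.293 to 0.632. Without the 2 farthest dogs r was -0.49 for COL1A1 and -0.44 for COL15A1.

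As a description of the whole family, 15 of the other 43 collagen genes had a Pearson's r above 0.5 with COL1A1 across the 34 dogs on residuals from the 4 means by CHF group and sex, and 7 had an r below 0. All libraries share a scaling to total counts, and muscle content moves with many of the genes. After COL1A2, the closest were COL5A1 (0.93), COL3A1 (0.92), COL6A2 (0.88), COL5A2 (0.87) and the FACIT gene COL16A1 (0.84). The genes farthest below 0 were COL24A1 (-0.65), COL28A1 (-0.59) and COL19A1 (-0.55), also those with the steepest slopes on the muscle markers. With the marker mean also removed these 3 had r of -0.47, -0.37 and -0.24, and 17 genes had an r above 0.5. COL4A6, COL18A1, COL17A1 and COL27A1 had r from 0.02 to 0.18 with COL1A1, and from -0.36 for COL27A1 to 0.22 for COL17A1 with the marker mean also removed.

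Genes that make, cross-link, bind and break down collagen were taken from 6 lists of 89 genes, of which 86 were tested. Over all features, 52.6% were higher with CHF and the median log2 difference was 0.0076. The numbers of higher and lower genes in each list were not tested against this share. Whether the genes of a list vary together between dogs was not tested either. Of the 16 basement membrane partners 9 were higher and 7 lower, the median log2 difference being 0.02. Among them PXDN, the peroxidase that cross-links collagen IV, had a log2 difference of -0.15 (edgeR FDR = 0.744).

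Of the genes of chain modification and folding in the endoplasmic reticulum, 4 of 19 were higher and 15 lower, the median log2 difference being -0.04. The smallest p was that of P3H2, a prolyl 3-hydroxylase that acts on basement membrane collagen, with 36 ± 9.08 CPM with CHF (SD, n = 15) against 45.7 ± 9.25 CPM without (SD, n = 19) and a log2 difference of -0.35 with standard error 0.12 and an edgeR FDR of 0.4804. Of the genes of secretion and propeptide removal, 6 of 13 were higher and 7 lower, the median log2 difference being -0.01, and the procollagen C-proteinase BMP1 had the smallest p with a log2 fold change of -0.15.

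Of the genes of cross-linking and fibril assembly, 4 of 18 were higher and 14 lower, the median log2 difference being -0.13. TNXB, a tenascin that regulates the spacing of collagen fibrils, had the smallest p, with 511 ± 115 CPM with CHF (SD, n = 15) against 646 ± 129.9 CPM without (SD, n = 19) and a log2 difference of -0.34 with standard error 0.11 and an edgeR FDR of 0.428. Among the collagen receptors, 6 of 11 were higher and 5 lower, the median log2 difference being 0.03. ADGRG6, an adhesion receptor known to bind collagen IV, had 32.8 ± 8.69 CPM with CHF (SD, n = 15) against 24.7 ± 6.18 CPM without (SD, n = 19) and a log2 difference of 0.42 with standard error 0.12 and an edgeR FDR of 0.369, and 13 of 15 dogs with CHF were over the median of those without. ITGA11, the α11 chain of a collagen-binding integrin of fibroblasts, and OSCAR, an immune cell receptor for collagen, had log2 differences of -0.42 (edgeR FDR = 0.427) and -0.22 (edgeR FDR = 0.496). Among the genes of collagen breakdown, 3 of 9 were higher and 6 lower, the median log2 difference being -0.07, and the collagenase MMP13, at a mean below 0.1 CPM in both groups, differed by 1.52 on the log2 scale (edgeR FDR = 0.761).

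The deposited features limit some of these values. Exons held 95.8% of the span counts for COL1A1 and 98.1% for COL1A2, but 63.7% for COL4A5 and 31% for COL4A4, so a span count can include reads outside these exons to a degree that differs between genes. The low genes COL2A1 and COL7A1 were at 98% and 96.1%, and the COL9A3 span had fewer counts than its exons, so it does not contain them all. On the span feature, the log2 fold change of COL4A4 was -0.07 in place of 0.14. The spans of COL5A2, COL6A2, COL8A2, COL21A1 and COL6A6 cover 45.2% to 75.01% of the RefSeq gene on the same assembly, UU_Cfam_GSD_1.0. The COL20A1 feature overlaps that of ZGPAT on the same strand, and a read in the overlap counts for both.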

How the data were processed

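Poly-A RNA of 34 mitral valves was read in paired ends. The values are raw counts, which the authors made by aligning reads with STAR to canFam4 and counting with featureCounts 2.0.3 over canine RefSeq exons and spans of aligned human genes, without strand, with reads of a pair counted separately and overlapping features each counted. Of the counts above 0, 71% were even. A count column of no labelled sample (1 of 35) was not used. Groups and sexes came from the sample titles, with 1 library per dog. The 19568 features reaching 100 counts in total were tested with edgeR 4.0.16 in R 4.3.3 (TMM, quasi-likelihood, CHF status and sex, FDR 0.1 over all of them). The standard error was derived from the F statistic, and 95% intervals use a normal approximation with it. They are therefore somewhat narrower than the test implies, and that of COL14A1 excludes 0 at an edgeR p of 0.0542. An interaction term compared the sexes. Marker means and correlations used log2 CPM with a prior count of 2 and 100000 permutations within group and sex or within sex. Alternatives were DESeq2 1.42.0, limma 3.58.1 (voom), other scalings, filters and leaving out dogs. Scripts were tested on simulated data. Values are given for collagen genes with p below 0.05, the 3 highest of each class, the 6 chains of collagen IV, the cartilage chains, COL17A1 and COL18A1, and of each pathway list the genes that passed or the 1 with the smallest p, except for an item that is not reported here. The 3 highest were ranked by mean CPM instead of per length because most feature lengths are spans, a change made after the lengths were seen, and the other genes named were chosen after their values were seen. Members and gene lists were chosen with earlier results of these data known.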

Additional observations from a re-analysis of the deposited data

How the results depend on the processing

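No paired analysis was possible because each dog belonged to 1 group and gave 1 library. The count of collagen genes by CHF status at an FDR below 0.1 was 0 with edgeR and 2 with DESeq2. It was 1 without CAV614 and CAV1047, a fit that was not planned, and leaving out 1 dog at a time gave 0 to 1. Over all features the 23 calls became 13 with no sex term, 12 with the endothelial covariate, 0 in females alone, 0 in males alone, 64 with DESeq2 and 9 at an FDR threshold of 0.05, and leaving out 1 dog gave 8 to 28. DESeq2 called 3 features for the interaction, where edgeR called 0. With the cardiomyocyte mean removed, r was 0.40 for COL8A1 and COL8A2 and -0.0653 for COL15A1 and COL18A1. On log2(CPM + 1), r of the cardiomyocyte mean with COL3A1 was -0.39 and the Schwann cell marker difference was -0.0764.

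The log2 difference was followed through the alternatives for 24 named collagen genes, not for all 44. Of these 24, 17 changed sign under at least 1 alternative. Among them were COL4A5, which was at -0.31 with p below 0.05 over all dogs, and COL6A2, at -0.15. Over all 44 genes, 23 were higher with CHF in females and lower in males, and 6 the reverse. In males alone the values were COL10A1 -0.19, COL12A1 -0.24, COL15A1 -0.0605, COL16A1 -0.0622, COL1A1 -0.32, COL4A2 -0.26, COL4A4 -0.25, COL6A3 -0.33 and COL9A1 -0.0469. In females alone they were COL11A1 0.22, COL1A2 0.31, COL2A1 0.32, COL3A1 0.35, COL4A1 0.27, COL4A5 0.13 and COL6A2 0.0934. With limma voom they were COL10A1 -0.00849, COL15A1 -0.00252, COL1A1 -0.0106, COL4A2 -0.0520 and COL9A1 -0.0763. The cardiomyocyte covariate gave COL11A1 0.0210 and COL2A1 0.0865, and the endothelial covariate COL11A1 0.15, COL1A2 0.0550, COL2A1 0.35 and COL4A2 -0.0798. Without CAV614 and CAV1047, COL11A1 was 0.00814 and COL1A2 0.00986. On span features COL4A4 was -0.0750 and COL6A3 -0.00581. Leaving out 1 dog gave COL10A1 -0.34 to 0.17, COL11A1 -0.12 to 0.0191, COL12A1 -0.0205 to 0.16, COL1A1 -0.0682 to 0.12, COL2A1 -0.37 to 0.23, COL4A1 -0.10 to 0.0933, COL4A2 -0.0434 to 0.11, COL4A3 -0.0173 to 0.17, COL6A3 -0.0337 to 0.11 and COL9A1 -0.0418 to 0.14. The cause of these changes was not tested.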
